A study of Mus musculus with 20 samples.

Results

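The genes examined here act in autophagy and mitophagy, and they were taken by symbol from the raw gene counts: Bnip3, Bnip3l, Fundc1, Pink1, Map1lc3a, Map1lc3b, Gabarapl1, Ulk1, Wipi1 and Uvrag. They are 10 of the 54532 genes in the count table, and all 10 passed the filter on low counts that left 15354 genes for testing. Bulk RNA sequencing measured them in 10 kidney tumors (tumors 1 to 10) and 10 normal kidneys (normal kidneys 1 to 10) of mice, and the comparison asked how the tumors differed from normal kidney tissue. All tissue came from a cohort of 10 Cre-less AAV model mice on a C57BL/6J background, whose genotype was LSL-Cas9/+; Pax8 Cre/+. In these mice Cre recombinase is driven by the Pax8 promoter, which restricts Cas9 to Pax8-expressing cells, and an adeno-associated virus injected into the kidney carried guide RNAs against Keap1, Pbrm1, Vhl and Tsc1. The normal kidneys therefore share the Cas9 and Cre alleles with the tumors, and the mice, males and females, received the virus as young adults. Their age at tissue collection and which kidney gave the normal tissue are not given in the sources used here. Every library is whole tissue from which poly A RNA was enriched.

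Autophagy encloses cell contents in a double membrane, the autophagosome, and delivers them to lysosomes. The Ulk1 kinase starts the process, a phosphatidylinositol 3-kinase complex and WIPI proteins build the membrane, and small proteins of the ATG8 family (the LC3 and GABARAP genes) are attached to it and bind the cargo. Mitophagy is the same removal of mitochondria, and the mitochondria are marked either by receptors in their outer membrane, such as Bnip3, Bnip3l and Fundc1, or by the kinase Pink1, which phosphorylates ubiquitin on them. The cells of the kidney tubule are rich in mitochondria, and Bnip3 and Bnip3l are known as genes that hypoxia-inducible factors (HIF) turn on.

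HIF binds DNA at the letters ACGTG or GCGTG, and these cores were searched on both strands in the 250 bases before the RefSeq start site of each gene (GRCm38.p6). A palindrome CACGTG holds ACGTG on both strands and so counts as 2 cores. Of the 10 genes, 8 had a RefSeq promoter entry and 6 of these held at least 1 core, while Gabarapl1 and Fundc1 held 0. For Fundc1 and Wipi1 the whole window lay inside the gene as placed in the count table. Their core numbers thus do not describe sequence before that gene. Over all 32851 promoter windows, 38.6% held either core, 16.6% held ACGTG, 28.2% held GCGTG, 6.02% held CACGTG and 2.58% held 4 or more cores. Bnip3 and Map1lc3b had the most cores, 5 each, and Ulk1 and Pink1 had 1 each. In Bnip3, 2 of the 5 are the strands of 1 palindrome, so its number and that of Map1lc3b are not like for like. The windows of these 4 genes are shown, and they were chosen with the results below known: Bnip3 and Ulk1 rose, Map1lc3b was not called and Pink1 fell. Whether a core bears on the level of a gene was not tested. Each is given in the direction of its gene, up to the base before the gene's start in the count table, with capitals marking the cores on either strand. The first is Bnip3 at chr7:138909520-138909756 (minus strand), with cores 117, 108, 107, 99 and 35 bases before the start site, then Map1lc3b at chr8:121590188-121590360 (plus strand, 4 of its 5 cores lie in the printed stretch), Ulk1 at chr5:110810098-110810331 (minus strand) and Pink1 at chr4:138326308-138326546 (minus strand).
Bnip3: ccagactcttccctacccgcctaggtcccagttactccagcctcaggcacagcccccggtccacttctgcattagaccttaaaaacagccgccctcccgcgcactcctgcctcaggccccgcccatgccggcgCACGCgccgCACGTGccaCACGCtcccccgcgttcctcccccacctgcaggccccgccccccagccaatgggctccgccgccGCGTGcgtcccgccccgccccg
Map1lc3b: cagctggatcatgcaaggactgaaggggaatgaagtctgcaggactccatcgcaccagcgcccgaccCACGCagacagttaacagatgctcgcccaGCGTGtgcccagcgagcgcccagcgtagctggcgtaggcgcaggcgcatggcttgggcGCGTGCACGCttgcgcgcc
Ulk1: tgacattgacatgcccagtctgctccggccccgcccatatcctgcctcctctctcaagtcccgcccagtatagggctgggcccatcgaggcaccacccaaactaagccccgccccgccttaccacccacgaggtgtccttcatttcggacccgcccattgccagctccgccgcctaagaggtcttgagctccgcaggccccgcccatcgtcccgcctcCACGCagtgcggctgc
Pink1: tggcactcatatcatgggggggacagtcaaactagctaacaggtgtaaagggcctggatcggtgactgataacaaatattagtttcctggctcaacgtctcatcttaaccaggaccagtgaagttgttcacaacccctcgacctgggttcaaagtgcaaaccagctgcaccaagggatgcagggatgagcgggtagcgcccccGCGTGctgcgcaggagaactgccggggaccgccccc

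The printed Bnip3 stretch holds 1 CACGTG palindrome flanked by GCGTG cores, and the Map1lc3b stretch holds GCGTG cores only. A match of letters is a description of the sequence and does not show that a factor binds there.

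Tumor libraries held 18447394 to 24902973 counts and normal kidney libraries 14737516 to 26679704. Levels are given as CPM, the counts of a gene relative to its library's total, scaled by edgeR's TMM factors, which ranged from 0.881 to 1.11 for tumors and from 1.03 to 1.14 for 9 normal kidneys, with 0.749 for normal kidney 9. Among the targeted genes, Vhl fell (log2 fold change −0.49 ± 0.12 SE, adjusted p = 0.0018) and Tsc1 fell (−0.61 ± 0.18, adjusted p = 0.0087), Pbrm1 was at −0.28 ± 0.19 (adjusted p = 0.23; −0.39 without normal kidney 9, adjusted p = 0.0137), and Keap1 rose by 0.83 ± 0.09 (adjusted p = 1.3e-07). Editing can leave a transcript in place, so these levels check the labels only in part. All 9 markers of distal nephron and collecting duct fell, with a summed level of 2.04 to 34.0 CPM in tumors against 4146 to 10397 CPM in normal kidneys, and all 4 podocyte markers fell (28.7 to 123 against 84.5 to 824 CPM). Of 8 proximal tubule markers 2 fell and 0 rose (973 to 9418 against 1770 to 9989 CPM), and of 4 leukocyte markers tested 2 rose (93.0 to 318 CPM for the whole list of 7 against 25.0 to 79.2 CPM). Endothelial markers (1 of 5 rose), fibroblast markers (1 of 5 rose) and adipocyte markers (0 of 5 called) had summed levels that overlapped between the groups. No marker was at 0 in every tumor or in every normal kidney. Mitochondrially encoded genes took 2.09% to 4.93% of the counts in tumors and 7.12% to 12.2% in normal kidneys. In whole tissue fewer cells of a type and less RNA per cell cannot be told apart, and the part of cell composition in the differences below was not tested.

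Of the 10 genes, 4 rose in tumors (Bnip3, Bnip3l, Ulk1 and Wipi1), 3 fell (Pink1, Map1lc3a and Gabarapl1) and 3 were not called (Fundc1, Map1lc3b and Uvrag), by edgeR's quasi-likelihood test at an adjusted p under 0.05. Over all 15354 genes tested, 23.6% were called higher, 23.8% lower and 47.5% in either direction. The study's stricter limits were a log2 change over 1 and p under 0.001, and the paper does not say whether p was adjusted. With the unadjusted p of the edgeR test they kept 3 rises (Bnip3, Bnip3l and Ulk1, against 8.85% of all genes tested). They also kept 1 fall (Pink1, against 10.2%). The median log2 fold change was 0.12 over the 10 genes and −0.02 over all genes tested. Some libraries stood apart within their groups. Normal kidney 9 had the highest level of its group in 6 of the 10 genes and the lowest in 2. It also had the fewest detected genes of all libraries (19996) and the highest share of mitochondrially encoded counts (12.2%). Tumor 7 had the lowest level of its group in 6, and so did normal kidney 7. Results that depend on normal kidney 9 or tumor 7 are given with and without them. Normal kidney 7 was left out only in turn, as every library was.

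**Figure D1:**
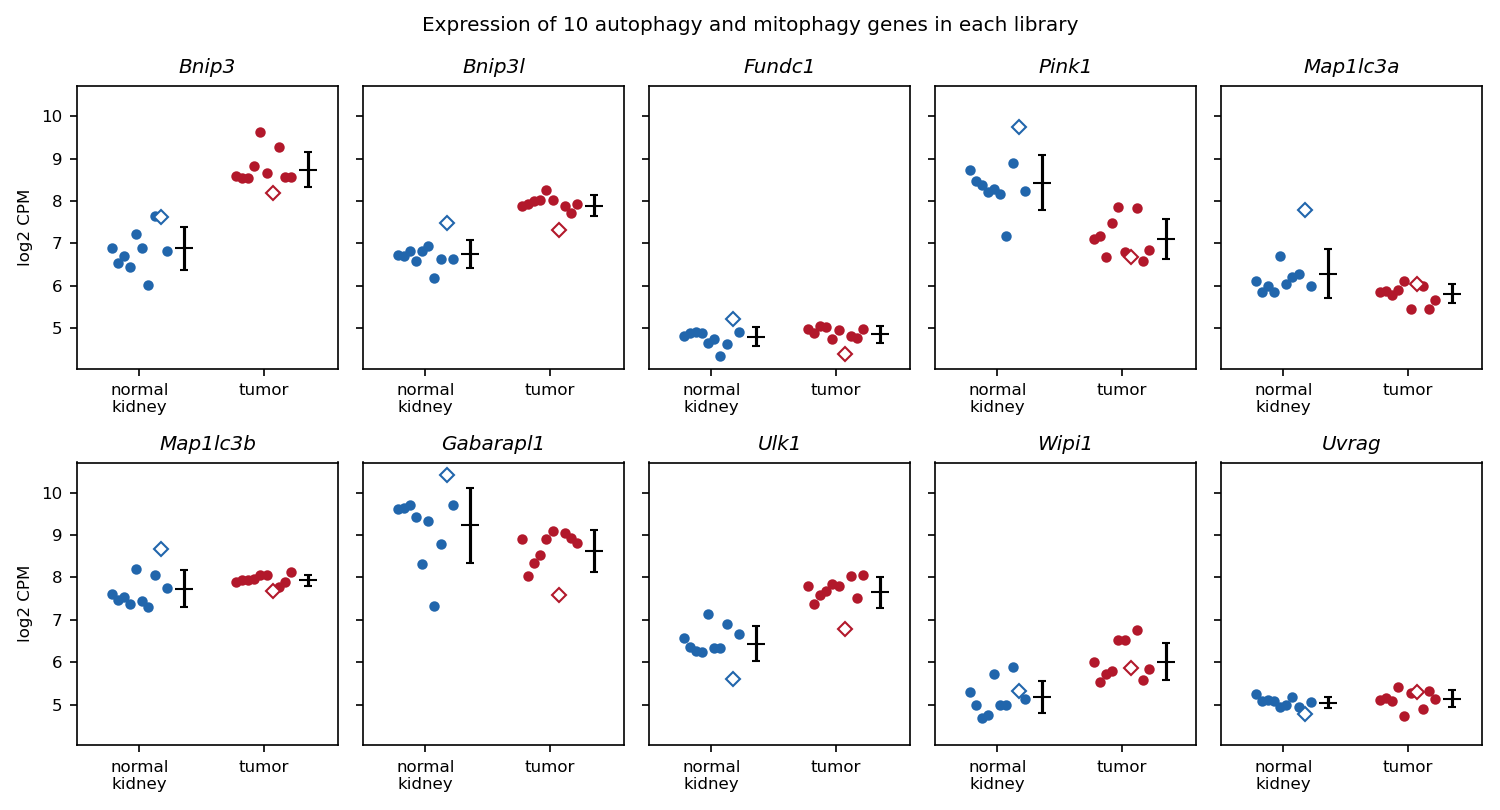
Level of the 10 genes in each of 10 normal kidneys (blue) and 10 tumors (red) as log2 CPM, with the mean and SD of each group beside the points and open diamonds for normal kidney 9 and tumor 7. Bnip3 separated the groups without overlap, Bnip3l and Ulk1 overlapped only through the open tumor diamond, Pink1 lay lower in tumors, and normal kidney 9 was the highest normal kidney in Map1lc3a, Map1lc3b and Gabarapl1.

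Bnip3, a receptor of the outer mitochondrial membrane (ENSMUSG00000078566, chromosome 7, 138890836 to 138909519, minus strand, mm10), differed most. The lowest, median and highest tumors had 289, 382 and 792 CPM, and the lowest, median and highest normal kidneys had 65.2, 115 and 201 CPM. Every tumor lay above every normal kidney, a separation that 5.87% of all genes tested showed. Tumors 5 and 8 were highest and tumor 7 lowest among tumors, while normal kidneys 8 and 9 were highest among normal kidneys. The group means were 444 ± 149 and 125 ± 45.2 CPM (SD, n = 10 each), a 3.56-fold rise (log2 fold change 1.83 ± 0.21 SE, adjusted p = 4.6e-07, edgeR).

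Bnip3l, also called Nix, is the close relative of Bnip3 that clears mitochondria from maturing red blood cells (ENSMUSG00000022051, chromosome 14, 66985239 to 67008877, minus strand). Its level was 158, 242 and 304 CPM in the lowest, median and highest tumors and 72.2, 106 and 180 CPM in the lowest, median and highest normal kidneys. Only tumor 7 overlapped with the normal kidneys, and only with normal kidney 9. The means were 240 ± 37.8 and 110 ± 27.7 CPM (SD, n = 10 each), a 2.17-fold rise (1.12 ± 0.14 SE on the log2 scale, adjusted p = 8.6e-07, edgeR). A transcribed pseudogene, Bnip3l-ps on chromosome 12, had 112 to 414 counts per library against 1746 to 6071 for Bnip3l, and how reads that match both were counted is not given in the sources used here.

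Fundc1, another receptor of the outer membrane, binds LC3 and acts in hypoxia (ENSMUSG00000025040, chromosome X, 17556564 to 17572325, minus strand). It ranged from 20.7 to 33.0 CPM with a median of 30.3 in tumors and from 20.3 to 37.1 CPM with a median of 28.7 in normal kidneys, and the groups overlapped throughout. Tumor 7 had the lowest tumor value, and normal kidneys 9 and 7 held both ends of the normal range. The means were 29.2 ± 3.67 and 28.0 ± 4.38 CPM (SD, n = 10 each). The log2 difference was 0.06 with a 95% interval from −0.15 to 0.26 (adjusted p = 0.67, edgeR), an interval that leaves out a doubling as seen for Bnip3l, and the sign turned with scaling by upper quartiles or by library totals (−0.06 in each).

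The rise of Bnip3 exceeded that of Bnip3l when each library was compared with itself. The log2 ratio of Bnip3 to Bnip3l counts averaged 0.85 ± 0.30 over the 10 tumors and 0.13 ± 0.36 over the 10 normal kidneys (mean ± SD), a difference of 0.72 or 1.64-fold (adjusted p = 0.00052 over 4 ratios, two-sided permutation test with 100000 resamples). Tumors ranged from 0.55 to 1.39 and normal kidneys from −0.18 to 1.02, so the groups overlapped. The overlap came from normal kidney 8, which lay well above the other normal kidneys, whose highest ratio was 0.39. Per kilobase of gene length, Bnip3 had 3.06 times the reads of Bnip3l in tumors and 1.86 times in normal kidneys.

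Pink1, the kinase that labels damaged mitochondria (ENSMUSG00000028756, chromosome 4, 138313409 to 138326307, minus strand), moved the other way. The lowest, median and highest tumors had 95.2, 127 and 233 CPM, and the lowest, median and highest normal kidneys had 144, 322 and 858 CPM. In 7 of 10 tumors the level was below every normal kidney, and tumors 4, 5 and 8 lay above normal kidney 7, the lowest normal kidney, but below all the others. The means were 145 ± 51.7 and 379 ± 190 CPM (SD, n = 10 each), and the level was 2.62-fold lower in tumors (log2 fold change −1.39 ± 0.25 SE, adjusted p = 0.00012, edgeR). Normal kidney 9 held the highest value, and without it the change was −1.18 (adjusted p = 8.6e-05, edgeR). With each library left out in turn the change lay between −1.49 and −1.18.

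Ulk1, the kinase that starts autophagosome formation (ENSMUSG00000029512, chromosome 5, 110784488 to 110810097, minus strand), was higher in tumors. It had 111, 213 and 268 CPM in the lowest, median and highest tumors and 48.4, 81.2 and 141 CPM in the lowest, median and highest normal kidneys. All tumors but tumor 7 lay above every normal kidney, of which normal kidneys 5 and 8 were highest and normal kidney 9 lowest. The means were 206 ± 46.4 and 90.0 ± 25.8 CPM (SD, n = 10 each), a 2.29-fold rise (1.19 ± 0.17 SE on the log2 scale, adjusted p = 7.5e-06, edgeR).

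Ulk2, the related kinase, rose less, by 0.34 ± 0.12 SE on the log2 scale (adjusted p = 0.0241, edgeR). That call was lost with scaling by upper quartiles or library totals (0.22 and 0.21). The log2 ratio of Ulk1 to Ulk2 averaged 1.67 ± 0.41 over the 10 tumors and 0.79 ± 0.55 over the 10 normal kidneys (mean ± SD), a difference of 0.88 (adjusted p = 0.00133, permutation test), with 3 tumors above every normal kidney. The ratio was highest among normal kidneys in numbers 5 and 8, which overlapped with tumors, and lowest in normal kidney 9. Among the partners of Ulk1 in the initiation complex, the regulatory subunit Atg13 rose by 0.34 ± 0.10 on the log2 scale (adjusted p = 0.0104), a call also lost with those scalings (0.22 and 0.21). The scaffold Rb1cc1 was at −0.14 ± 0.16 (adjusted p = 0.49) and the subunit Atg101 at −0.09 ± 0.16 (adjusted p = 0.66), and without normal kidney 9 these were −0.25 (adjusted p = 0.0485) and 0.08 (adjusted p = 0.42, edgeR).

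Wipi1, which binds phosphatidylinositol 3-phosphate on the growing membrane (ENSMUSG00000041895, chromosome 11, 109573331 to 109611967, minus strand), also rose. It had 46.3, 57.6 and 109 CPM in the lowest, median and highest tumors and 25.6, 33.5 and 59.4 CPM in the lowest, median and highest normal kidneys. Tumors 1, 5, 6 and 8 were above every normal kidney, and the remaining tumors overlapped with normal kidneys 5 and 8, the highest of their group. The means were 67.4 ± 21.9 and 37.4 ± 10.9 CPM (SD, n = 10 each), a 1.80-fold rise (0.85 ± 0.18 SE on the log2 scale, adjusted p = 0.00068, edgeR).

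Uvrag, a Beclin 1 partner in the phosphatidylinositol 3-kinase complex that acts on endosomes and late autophagosomes (ENSMUSG00000035354, chromosome 7, 98885021 to 99141141, minus strand), varied least among the normal kidneys. It ranged from 26.5 to 42.5 CPM with a median of 35.2 in tumors and from 27.5 to 37.8 CPM with a median of 33.7 in normal kidneys. In 4 tumors it was above every normal kidney and in tumor 5 below all of them. The means were 35.5 ± 4.84 and 33.0 ± 2.96 CPM (SD, n = 10 each). The log2 difference of 0.11 had a 95% interval from −0.07 to 0.28 (adjusted p = 0.34, edgeR), and it was −0.01 with upper-quartile scaling and −0.02 with library totals. The coefficient of variation was 8.98% in normal kidneys and 13.6% in tumors.

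The ATG8 genes did not share a direction, and normal kidney 9 had the highest level of the normal kidneys in all 5 of them. Map1lc3a encodes LC3A (ENSMUSG00000027602, chromosome 2, 155276297 to 155278073, plus strand). It had 43.5, 58.3 and 69.5 CPM in the lowest, median and highest tumors and 57.8, 67.5 and 219 CPM in the lowest, median and highest normal kidneys. Tumors 3, 6, 9 and 10 lay below every normal kidney, and normal kidney 9 was far above the rest, which reached at most 104 CPM. The means were 56.8 ± 8.66 and 85.3 ± 49.0 CPM (SD, n = 10 each), a fall (−0.59 ± 0.21 SE on the log2 scale, adjusted p = 0.0256, edgeR). Without normal kidney 9 the fall was smaller, −0.32, and still called (adjusted p = 0.0244, edgeR). Under limma-voom with weights for library quality the fall was smaller still, −0.22, and called (adjusted p = 0.0249). With a block for replicate number, which is not stated to mark a mouse, it was −0.45 and not called (adjusted p = 0.0745, edgeR).

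Map1lc3b encodes LC3B, the form most often used to follow autophagosomes (ENSMUSG00000031812, chromosome 8, 121590361 to 121598760, plus strand). Its lowest, median and highest values were 203, 245 and 277 CPM in tumors and 157, 190 and 407 CPM in normal kidneys, and every tumor lay within the normal range. The tumors were the more uniform group, with a coefficient of variation of 9.30% against 35.1% in normal kidneys, or 7.44% and 23.4% without tumor 7 and normal kidney 9. The means were 245 ± 22.8 and 223 ± 78.4 CPM (SD, n = 10 each), and the log2 difference of 0.13 had a 95% interval from −0.17 to 0.43 (adjusted p = 0.50, edgeR). Map1lc3b passed the threshold under limma-voom with weights for library quality (0.42, adjusted p = 3.5e-05) and just so without tumor 7 and normal kidney 9 (0.27, adjusted p = 0.0499, edgeR). The 3′ end of Map1lc3b overlaps Zcchc14 on the opposite strand, and since the use of strand in counting is not given, reads in the overlap cannot be assigned. The overlap, 121598703 to 121598760, is a small part of the 7517 bases of Map1lc3b.

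Gabarapl1, an ATG8 protein of the GABARAP branch (ENSMUSG00000030161, chromosome 6, 129533160 to 129542346, plus strand), was lower in tumors, and the call depended on single libraries. It had 192, 464 and 544 CPM in the lowest, median and highest tumors and 159, 733 and 1358 CPM in the lowest, median and highest normal kidneys. Normal kidneys 5 and 8 lay within the tumor range, at 321 and 443 CPM, normal kidney 7 lay below every tumor, and the other 7 lay above every tumor. Normal kidneys 5, 7 and 8 were left out only singly, not together. The means were 413 ± 119 and 686 ± 332 CPM (SD, n = 10 each), a 1.66-fold fall (−0.73 ± 0.28 SE on the log2 scale, adjusted p = 0.0356, edgeR). The call was lost when any of 9 libraries was left out (normal kidneys 1, 2, 3, 9 and 10 and tumors 2, 3, 4 and 7), with adjusted p-values up to 0.0703 and a change between −0.85 and −0.58 over all 20 omissions. Without tumor 7 and normal kidney 9 together it was −0.51 (adjusted p = 0.0946).

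The relatives that complete the family, Gabarap and Gabarapl2, were not called in all libraries (log2 fold changes 0.28 ± 0.19 and 0.21 ± 0.16 SE, adjusted p = 0.24 and 0.28, edgeR). Gabarap had 318 to 415 CPM in tumors and 215 to 778 CPM in normal kidneys, and Gabarapl2 had 63.8 to 108 CPM in tumors and 65.1 to 171 CPM in normal kidneys, with normal kidney 9 the highest in each. Without normal kidney 9 each gene rose (0.54, adjusted p = 1.4e-05, and 0.39, adjusted p = 0.00032, edgeR). Each also rose over all libraries under limma-voom with weights for library quality (0.57, adjusted p = 1.1e-07, and 0.50, adjusted p = 8.4e-08). By edgeR the 5 ATG8 genes thus gave 2 lower and 0 higher with all libraries, and 1 lower (Map1lc3a) and 2 higher (Gabarap and Gabarapl2) without normal kidney 9.

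Ratios within a library do not depend on the scaling between libraries. The log2 ratio of Map1lc3a to Map1lc3b averaged −2.12 ± 0.31 over the 10 tumors and −1.46 ± 0.28 over the 10 normal kidneys (mean ± SD), a difference of −0.66 (adjusted p = 0.00024, two-sided permutation test). In 8 tumors it was below every normal kidney, and tumors 7 and 8 overlapped. The log2 ratio of Gabarapl1 to Gabarapl2 averaged 2.09 ± 0.39 over the tumors and 2.96 ± 0.83 over the normal kidneys, a difference of −0.87 (adjusted p = 0.00968, permutation test), with normal kidney 5 within the tumor range and normal kidney 7 below it. All 4 ratios kept their sign and stayed past the threshold when any 1 library was removed.

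**Figure D2:**
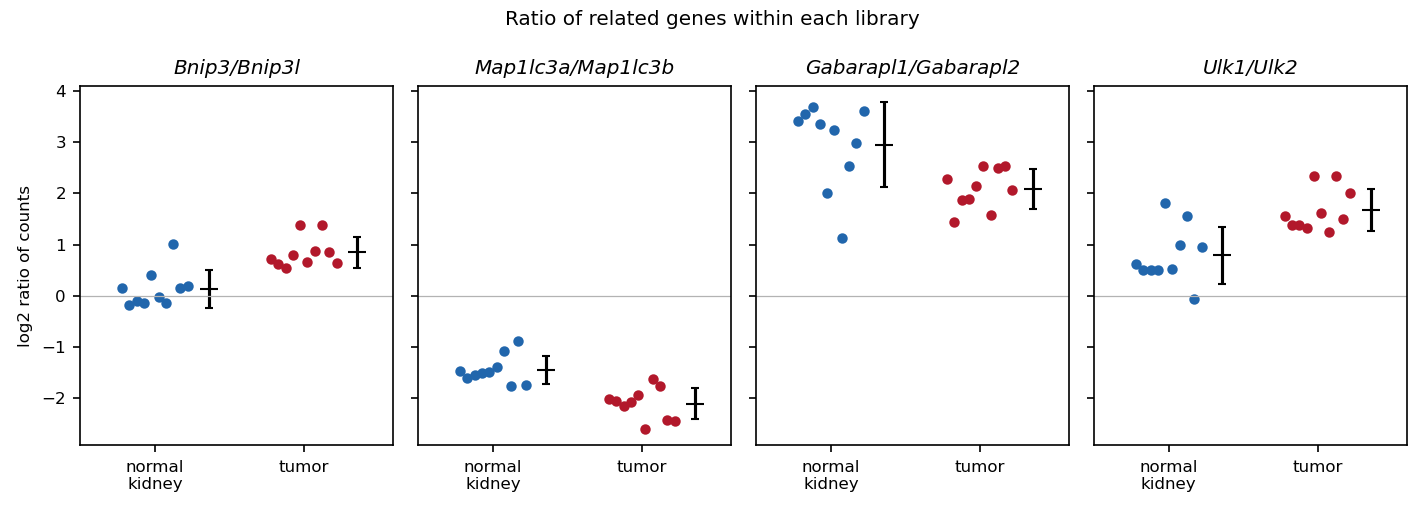
Log2 ratio of the counts of related genes in each normal kidney (blue) and tumor (red), with the mean and SD of 10 libraries beside the points. Bnip3/Bnip3l and Ulk1/Ulk2 were higher in tumors by 0.72 and 0.88, and Map1lc3a/Map1lc3b and Gabarapl1/Gabarapl2 were lower by 0.66 and 0.87 on the log2 scale.

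Levels of different genes were compared as CPM per kilobase (RPKM), with the gene lengths of the count table. For Map1lc3b that length, 7517 bases, covers most of its locus (121590361 to 121598760). If most of its transcripts are shorter, its RPKM is too low. The places of Map1lc3b below and its neighbour tests depend on that length. By CPM Map1lc3b was above Map1lc3a (means of 223 against 85.3 in normal kidneys and 245 against 56.8 in tumors). In normal kidneys the order was Gabarapl1 (341 RPKM), Pink1 (142), Map1lc3a (72.2), Bnip3 (55.0), Map1lc3b (29.7), Bnip3l (28.6), Ulk1 (13.9), Fundc1 (11.9), Wipi1 (8.49) and Uvrag (3.65 RPKM). In tumors it was Gabarapl1 (205 RPKM), Bnip3 (196), Bnip3l (62.2), Pink1 (54.2), Map1lc3a (48.1), Map1lc3b (32.6), Ulk1 (31.7), Wipi1 (15.3), Fundc1 (12.4) and Uvrag (3.93 RPKM). Bnip3 was thus below Gabarapl1, Pink1 and Map1lc3a in normal kidneys but next to Gabarapl1 in tumors, and Pink1, next to Gabarapl1 in normal kidneys, was below Bnip3 and Bnip3l in tumors.

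Neighbours in these orders were compared by exact sign-flip permutation tests within libraries (two-sided, n = 10 libraries, smallest possible p 0.00195, adjusted over 18 pairs). The pairs and the direction of each gap were set by the means of the same libraries, and the tests rest on the gene lengths used. In normal kidneys Map1lc3a and Bnip3 (adjusted p = 0.0607), Map1lc3b and Bnip3l (0.797), and Ulk1 and Fundc1 (0.415) did not differ beyond their spread. In tumors the same held for Gabarapl1 and Bnip3 (0.707), Bnip3l and Pink1 (0.117), Pink1 and Map1lc3a (0.415), Map1lc3b and Ulk1 (0.532), and Wipi1 and Fundc1 (0.192). All other neighbours passed, so the place of Uvrag at the bottom of each order was beyond the spread.

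**Figure D3:**
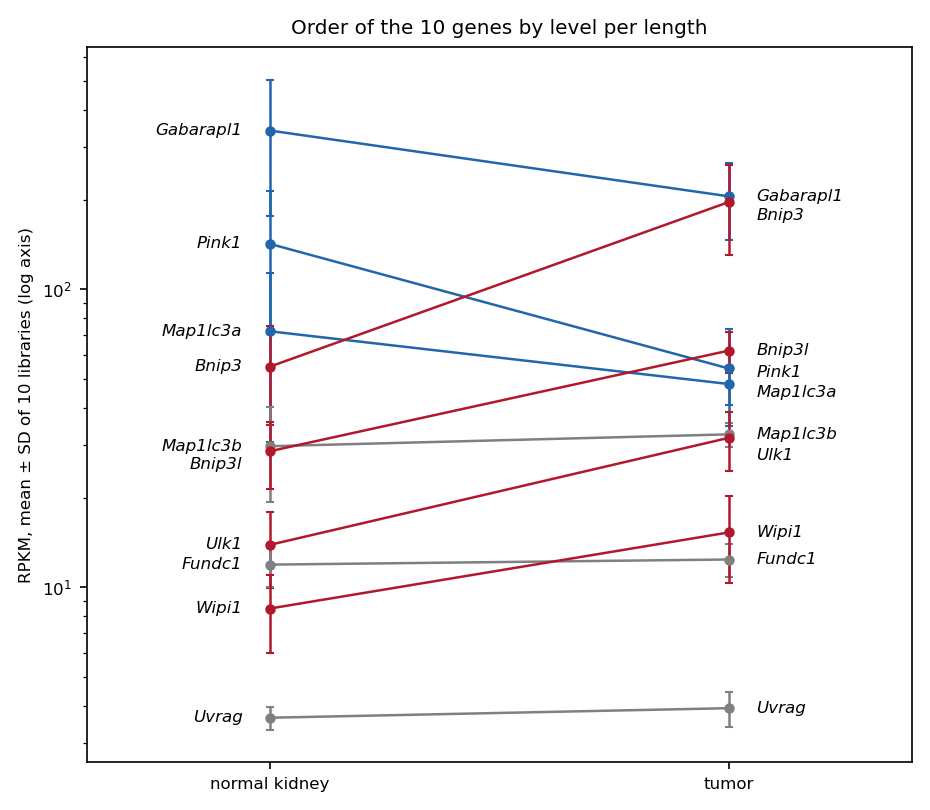
Mean level and SD of the 10 genes as RPKM on a log axis in 10 normal kidneys (left) and 10 tumors (right), with lines joining each gene and colored red where it rose, blue where it fell and gray where it was not called. Bnip3 climbed from 55.0 to 196 RPKM, level with Gabarapl1 in tumors, and Pink1 dropped from 142 to 54.2 RPKM.

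Within each group, the other 9 genes were related to Bnip3 across the 10 libraries on the log2 CPM scale (18 relations, permutation p with 100000 resamples, adjusted over the 18). The relation to Map1lc3b in normal kidneys passed by both measures (Pearson r = 0.872, permutation p = 0.00092, adjusted p = 0.0166; Spearman rho = 0.83, permutation p = 0.005, adjusted p = 0.045). There r was 0.937 without normal kidneys 7 and 8, the 2 farthest from the Bnip3 median, 0.851 without normal kidney 9 (adjusted permutation p = 0.0373) and 0.828 when CPM was set by library totals (adjusted permutation p = 0.0364). In tumors the same genes gave r = 0.283 (permutation p = 0.425), which was 0.742 without tumors 5 and 8, the 2 farthest from the Bnip3 median there, and −0.0499 without tumor 7. The value in tumors thus depended on which libraries entered, and the difference between the groups was not tested.

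Bnip3 and Pink1, which moved in opposite directions between the groups, had a positive r within each group. In tumors r was 0.872 (permutation p = 0.00184, adjusted p = 0.0166) and rho 0.733 (adjusted permutation p = 0.0737), with tumors 5 and 8 highest in both genes. Without those 2 tumors r was 0.583, and with library totals it was 0.829 (adjusted permutation p = 0.0832), so the relation rested in part on them. In normal kidneys r was 0.824 (adjusted permutation p = 0.0236), rho 0.624 (adjusted permutation p = 0.106) and r 0.759 without normal kidney 9 (adjusted permutation p = 0.0725). Bnip3l in tumors (r = 0.699, adjusted permutation p = 0.04) and Uvrag in normal kidneys (r = −0.759, adjusted permutation p = 0.04) passed by r, but not without tumor 7 (0.626) or normal kidney 9 (−0.649). Without the 2 libraries farthest from the Bnip3 median, r was 0.892 for Bnip3l in tumors and −0.756 for Uvrag in normal kidneys. Wipi1 in normal kidneys passed by rho (0.842, adjusted permutation p = 0.045), and the remaining 12 relations passed by neither measure.

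To place the 10 genes among their partners, 83 genes were listed in 9 steps of autophagy and mitophagy, of which 82 passed the filter. In all, 36 rose (43.9%) and 6 fell (7.32%), with a median log2 fold change of 0.20, beside 23.6% and 23.8% and a median of −0.02 over all genes tested. Without the 10 genes above, 32 of 72 rose and 3 fell. The number of falls depended on the scaling: it was 12 with upper quartiles and 13 with library totals, which moved the median of all genes to −0.14 each, and the number of rises was then 31 and 30. Every tumor lay above every normal kidney in 6 of the 82 genes (7.32%, against 5.87% of all genes tested) and below in 0 (against 4.74%).

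The counts were also taken by step, without a test between steps. Over all genes tested 23.6% were called higher and 23.8% lower. In the fusion of autophagosomes with lysosomes 10 of 14 rose and 0 fell (median 0.45), among the enzymes that attach ATG8 proteins 7 of 11 rose and 0 fell (0.36), and among the membrane supply and WIPI proteins 6 of 9 rose and 1 fell, Wipi2 (0.51). The initiation complex had 3 of 5 rising (0.34), the cargo receptors 5 of 11 (0.33) and the phosphatidylinositol 3-kinase complexes 2 of 8 (0.11), with 0 falling in each. The 25% of rises in the phosphatidylinositol 3-kinase complexes was near the share over all genes. The mitophagy receptors had 2 rises, Bnip3 and Bnip3l, and 2 falls, Phb2 and Nipsnap2, in 9 genes (0.06). That is 22.2% in each direction, near the shares over all genes. The group of Pink1 and other mitophagy regulators had 1 rise, Pgam5, and 1 fall, Pink1, in 10 genes (−0.14). Wipi2, Phb2, Nipsnap2 and Pgam5 were named after their values were seen, since these counts are small.

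Genes of the list with a log2 fold change of at least 1 in size were, beside Bnip3, Bnip3l, Ulk1 and Pink1, Optn, Retreg1, Tecpr1 and Vps18. Optineurin (Optn), a receptor that links ubiquitin-marked mitochondria to LC3, rose 4.35-fold (2.12 ± 0.17 SE on the log2 scale, adjusted p = 2.5e-09, edgeR), from 14.2 to 37.0 CPM in normal kidneys to 53.4 to 131 CPM in tumors. The endoplasmic reticulum receptor Retreg1 rose by 1.16 ± 0.18 on the log2 scale (adjusted p = 2.6e-05), with all tumors but tumor 7 above every normal kidney. Tecpr1, which acts at the fusion with lysosomes, rose by 1.43 ± 0.18 (adjusted p = 1.4e-06), and Vps18, a core subunit of the HOPS tethering complex, rose by 1.52 ± 0.13 (adjusted p = 7.1e-09, edgeR). In Optn, Tecpr1 and Vps18 every tumor lay above every normal kidney. The cargo receptor Sqstm1 (p62), whose protein autophagy itself degrades, rose 1.80-fold, from 693 ± 164 to 1250.1 ± 297 CPM (SD, n = 10 each, adjusted p = 0.0002, edgeR), with 7 tumors above every normal kidney.

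**Figure D4:**
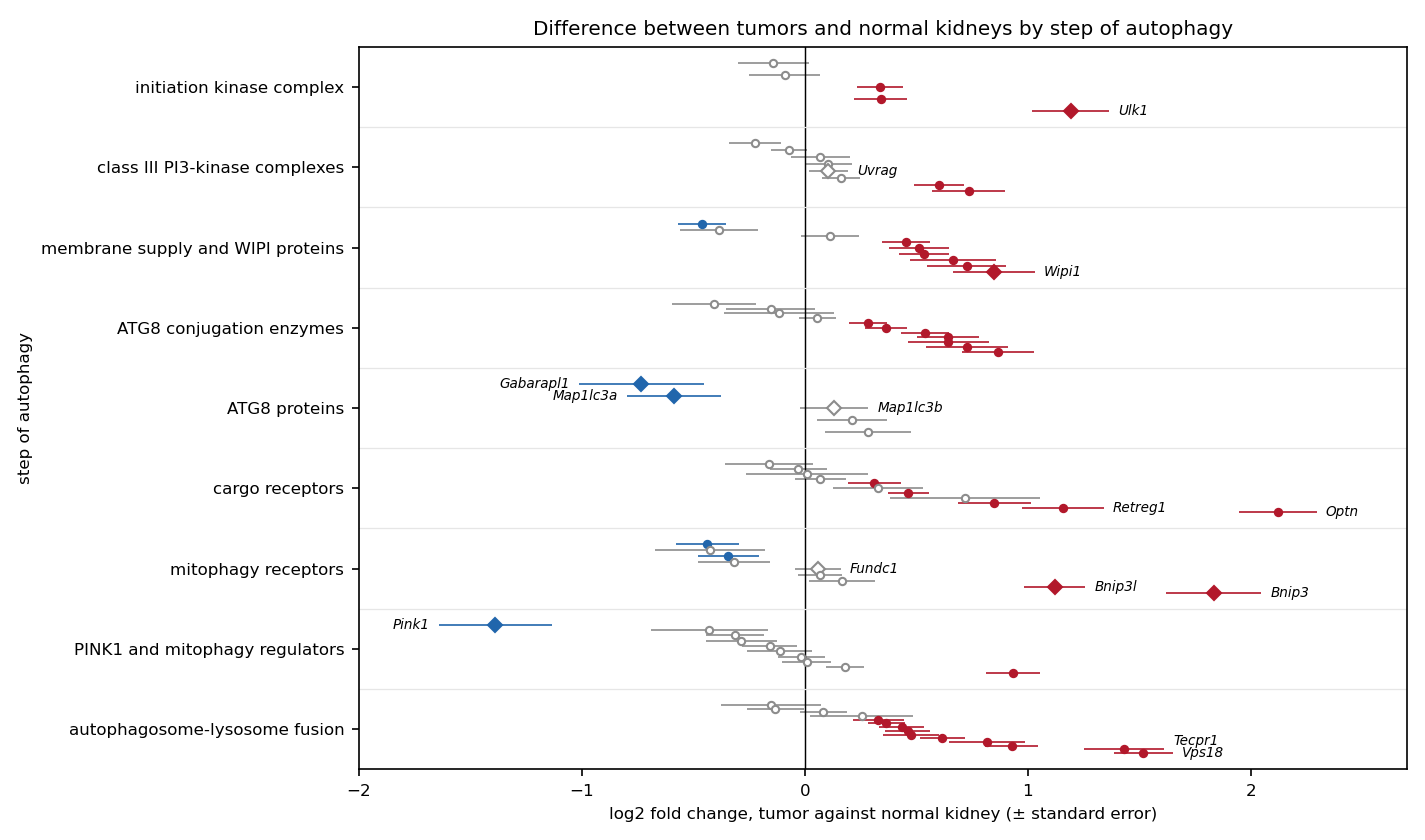
Log2 fold change of tumors against normal kidneys with its standard error for 82 genes in 9 steps of autophagy, 1 point per gene. Diamonds are the 10 genes described, circles the other genes, filled red or blue where the gene was called higher or lower and open where it was not. The fusion step shows 10 rises and 0 falls, whereas Gabarapl1 and Map1lc3a fell among the ATG8 proteins and Pink1 fell most of all.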

How the data were processed

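Tissue of 10 tumors and 10 normal kidneys was flash frozen, pulverized and extracted with Trizol, and poly A libraries were sequenced as read pairs by a company that also counted reads per gene. The authors deposited these raw counts for 54532 genes without normalization, with gene lengths and positions on the build mm10 named in the submitters' processing notes. The aligner, the counting tool and the use of strand are not given in the sources used here, so overlapping genes and near-identical copies carry uncertain counts. Groups and replicate numbers came from the sample labels. The table held 0 columns of per-sample values left unused and 0 rows without a gene name. Libraries of a group differed by more than sampling noise in all 90 pairs (chi-square per degree of freedom at least 14.27).

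Counts were scaled by TMM in edgeR 4.0.16 (R 4.3.3), filtered at a count minimum of 10 (15354 genes left) and compared by edgeR's quasi-likelihood test over all 20 libraries with no covariate. Calls were made at 0.05 after Benjamini-Hochberg adjustment across the tested genes. Log2 CPM used a prior count of 2, intervals of fold changes are at 95%, and ratios of counts used a pseudocount of 0.5. Permutation tests used 100000 resamples (seed 20240) or all arrangements where called exact (Python 3.11.15, scipy 1.17.1, numpy 2.4.6). Alternatives were DESeq2 1.42.0 (test and size factors), limma 3.58.1 (voom with quality weights), upper quartiles, library totals and no filter. Further alternatives were a replicate block, the paper's limits (log2 fold change of 1 and p of 0.001, taken here as unadjusted), and leaving out libraries. The paper's own analysis platform was not used. On simulated counts for 15354 genes in this comparison, the test called 53.3% of genes changed 2-fold and 89.8% of those changed 4-fold. Of its calls there, 3.31% were false. Whether these rates hold for the measured counts was not tested.

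The 10 genes, the lists of 9 steps and the marker lists were chosen with earlier results of these data known. Genes named are those 10, their direct relatives or partners Gabarap, Gabarapl2, Ulk2, Atg13, Rb1cc1, Atg101 and Sqstm1, the 4 targeted genes, and listed genes with an adjusted p under 0.05 and a log2 fold change of at least 1 in size. A gene that this rule covers is not reported here. P-values measure the spread between the samples, and the labels do not say that replicate numbers mark a mouse. Since the 20 libraries came from a cohort of 10 mice, they are not all from different mice. The main tests between the groups nevertheless treat the libraries as independent. Promoter sequences are from RefSeq (GRCm38.p6).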

Additional observations from a re-analysis of the deposited data

Results flagged for a closer look

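Of 52 sets of 10 libraries (the log2 CPM of 22 named genes and 4 log2 ratios in each group), 12 had a library far from the other 9. About 1 in 20 independent, normally distributed sets would pass the limit used. These sets share the same libraries, so their number cannot be compared with that rate. Normal kidney 9 accounted for 7 of them and tumor 7 for 4.

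In normal kidney 9, 3 ATG8 genes were far above the others: Map1lc3a was at 7.78 log2 CPM (others 5.86 to 6.71), Gabarap at 9.61 (7.75 to 8.26) and Gabarapl2 at 7.42 (6.03 to 6.32). The initiation subunits Atg101 and Rb1cc1 lay at opposite ends there, with Atg101 at 5.79 (4.21 to 4.83) and Rb1cc1 at 4.64 (5.56 to 6.53). Of the fusion genes named, Tecpr1 and Vps18 were low there, with Tecpr1 at 3.91 (5.43 to 6.25) and Vps18 at 4.40 (4.99 to 5.25). The genes far above the others there were Map1lc3a (length 1181 bases), Atg101 (1597), Gabarap (1844) and Gabarapl2 (2325). Rb1cc1 (14690 bases) and Tecpr1 (12772), both low there, are far longer. Normal kidney 9 also had the fewest detected genes of all libraries, 19996. Whether gene length or RNA quality underlies these values was not tested.

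In tumor 7 the 4 distant genes were all low. Fundc1 was at 4.38 log2 CPM (others 4.75 to 5.05), Gabarapl2 at 6.00 (6.40 to 6.75), Optn at 5.74 (6.43 to 7.03) and Vps18 at 5.67 (6.31 to 6.88).

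Normal kidney 8 stood apart in the log2 ratio of Bnip3 to Bnip3l, at 1.02 against −0.18 to 0.39 in the other normal kidneys. Its Bnip3 level of 201 CPM was the highest of the normal kidneys, while its Bnip3l level lay within their range.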

How the results depend on the processing

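Over 86 results and 1898 alternative values, 1742 kept their direction, their side of the threshold or, for counts, a value within 1.5 times. The number of higher genes among the 10 was 3 to 5 over all alternatives, and leaving out each library in turn gave 4 higher and 2 to 3 lower among the 10 genes and 35 to 40 higher and 4 to 8 lower in the list of 9 steps. Falls in that list numbered 12 with upper quartiles, 13 with library totals, 11 with limma-voom and 1 by the paper's limits, by which 7 listed genes rose and 1 of the 10 genes fell. Those 2 scalings moved the median of all genes from −0.02 to −0.14 each, and the share of calls that were higher from 49.79% to 39.22% and 38.49%. Fundc1 turned to −0.064 with upper quartiles and −0.063 with library totals, and Uvrag to −0.0093 and −0.018. Atg101 turned to 0.037 with limma-voom, 0.085 without normal kidney 9 and 0.071 without tumor 7 and normal kidney 9. In tumors, r of Bnip3 turned to −0.413 with Fundc1 and −0.331 with Map1lc3b with library totals, and to −0.614 and −0.0499 without tumor 7, an omission chosen after seeing the data. The cause of these changes was not tested. By replicate number, 9 of 10 same-numbered tumors and kidneys deviated together (correlation over 0.1; range −0.143 to 0.377), and 8 tumors and 5 kidneys matched their own number best. The numbers were not taken as pairs, since the sources do not say that a number marks a mouse and number 9 had a negative correlation. With a replicate block 4 of the 10 genes were higher and 2 lower, Map1lc3a being at −0.45 (adjusted p = 0.0745, edgeR), the only call among the 10 genes that the block changed, and 36 listed genes were higher and 6 lower. Intervals cover the spread between libraries.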
